A study of Homo sapiens with 24 samples.

Results

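Replication-dependent histone genes encode the linker histone H1 and the core histones H2A, H2B, H3 and H4 that package newly made DNA. They were chosen as the gene rows whose Ensembl identifier maps to a symbol made of H2AC, H2BC, H3C or H4C and a number, or to H1-1 to H1-5, without pseudogenes. Of 68 symbols that met this rule, 64 had a row among the 58676 genes of the count table, and H3C2, H3C3, H2AC18 and H2AC19 were not analysed here. The 64 genes were 5 of H1, 15 of H2A, 18 of H2B, 11 of H3 and 15 of H4. By position, 52 lay in the 6p22 block on chromosome 6, 9 in 1q21, 2 in 1q42 and 1 in 12p12. H3C2, a gene of the H3.1 histone that carries the K27M change in some diffuse midline gliomas (DMG), is among those without a value.

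These genes are switched on as cells enter S phase, through NPAT at the histone locus body. Their mRNAs usually end in a short stem-loop, which the protein SLBP binds and the U7 snRNP helps to cut, and carry no poly(A) tail. Several of the genes are also known to give a longer, polyadenylated mRNA in differentiated or slowly dividing cells. A library made by poly(A) selection, as here, can therefore hold only part of the histone mRNA of a cell.

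HSJD-DIPG-007 is a DMG line grown as spheroids. All groups carried the same labelled genotype, H3F3A K27M, ACVR1 R206H and a PIK3CA missense change, and came from this 1 line. Cultures received vehicle or LLY-283, an inhibitor of the arginine methyltransferase PRMT5, at its GI40, a dose set to inhibit growth in part. The medium and dose were renewed after day 5. The 12 vehicle and 12 LLY-283 libraries comprised 3 each at days 0 and 5, 2 each at day 7, and 1 each at days 1, 2, 3 and 10. The study calls libraries of a group technical repeats, so p-values measure the spread between such repeats, which need not include that between cultures.

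The libraries held 13835205 to 23190369 counts. Of 8 glioma precursor-like markers, all were above 0 in the day 5 libraries, with a summed level of 4575 to 4933 CPM (counts scaled to a library total of 1000000 with TMM factors). SOX10 was at 0 in the vehicle library of day 10. The summed level of 12 fibroblast markers was 277 and 286 CPM in vehicle repeats 1 and 2 of day 5, 447.5 CPM in vehicle repeat 3, and 360.4 to 362.5 CPM in LLY-283, so vehicle repeat 3 stood apart. At day 7, the libraries labelled repeat 2 held histone levels nearer to those of repeat 1 of the other treatment than of their own. The histone genes took 0.01771% and 0.02453% of counts in vehicle repeats 1 and 2, and 0.02534% and 0.01515% in LLY-283. The vehicle library of day 10 was also high, at 0.02496%. The labels of day 7 are treated as in doubt, but an exchange was not tested. This doubt rests in part on the histone levels themselves, so it cannot set aside the day 7 results. All day 7 values are given by label, and results that use these libraries carry that doubt.

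The stem-loops are shown because they are the feature that sets these mRNAs apart from others. A perfect stem of 6 base pairs closed by a loop of 4 bases, starting with GG and ending with CC, was found after the stop codon in an annotated transcript of 62 of the 64 genes. It started 22 to 62 bases after the stop codon. The exceptions were H2AC11 and H2AC15. One form, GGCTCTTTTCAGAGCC, was shared by 36 genes of H1, H2A, H2B and H3, and another, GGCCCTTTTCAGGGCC, by 10 H4 genes. The stem-loops of 6 genes whose RNA differed between treatments at day 5 follow, 5′ to 3′ from the annotated transcripts of GRCh38, with the stem and loop in capitals and the flanking bases in lower case.
H2BC21: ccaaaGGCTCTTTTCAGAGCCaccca
H1-2: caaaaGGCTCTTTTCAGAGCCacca
H2BC5: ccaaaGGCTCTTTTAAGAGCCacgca
H3C6: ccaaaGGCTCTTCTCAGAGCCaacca
H4C8: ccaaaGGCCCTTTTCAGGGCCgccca
H4C15: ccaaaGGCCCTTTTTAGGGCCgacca
All 15 H4 genes had the stem that opens with GGCCCT, and all 47 other genes with a stem-loop had the stem that opens with GGCTCT. The loop was TTTC in H2BC21, H1-2 and H4C8, TTTA in H2BC5, TCTC in H3C6 and TTTT in H4C15. The whole stem-loop of H3C6 was found in no other of the 64 genes.

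Most of these genes were at very low levels in the poly(A) libraries. Together they took 0.0137% to 0.0254% of the counts of a library. Of the 64 genes, 6 were at 0 in all 24 libraries, 35 had a mean between 0 and 10 counts, and 23 had a mean of at least 10 counts. The 10 highest genes held 84.7% of the summed level. Per kilobase of annotated exon, H2BC12 had the highest mean level, 46.5 CPM per kb, followed by the linker histone gene H1-2 with 32.3 CPM per kb and H4C9 with 24.3 CPM per kb. H2BC5 and H2BC21, of H2B, had 15.5 and 12.8 CPM per kb. H2AC6 and H2AC25 led the H2A genes with 11.5 and 7.89 CPM per kb. In H3, H3C6 and H3C10, both of which encode H3.1, had 4.42 and 2.70 CPM per kb. H4C15 had 3.59 CPM per kb, and H1-4, the next H1 gene after H1-2, had 0.447 CPM per kb with 1 to 12 counts a library.

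An annotated transcript that could carry a poly(A) tail was present for 16 of the 64 genes. Such a transcript was taken to be one with AATAAA or ATTAAA in its last 50 bases that lacks the stem-loop or runs on more than 60 bases past it. Of these 16 genes, 14 had a mean of at least 10 counts, against 9 of the 48 genes without one. H2BC21 has a single annotated transcript, which runs on 1729 bases past its stem-loop. For H3C6 the longest annotated run past the stem-loop was 1862 bases, for H4C8 1655 bases, for H2AC6 1128 bases, for H2AC25 1110 bases and for H3C10 769 bases. H1-2, H2BC12 and H4C9 have no such transcript and were the highest of all per kilobase. That measure divides by all annotated exon bases, which were 731, 495 and 397 for these genes and 2224 for H2BC21. The ranking per kilobase is therefore tied to the annotation. By CPM alone H2BC21 was highest at 28.5, with H1-2 at 23.6, H2BC12 at 23.03 and H4C9 at 9.63.

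Reads of near-identical genes cannot be told apart. H4C14 and H4C15 shared nearly all of their 31-base words, H3C14 and H3C15 likewise, and the count rows of H3C14 and H3C15 were identical. H4C15 shared 100% of its words with H4C14. H2BC12 shared 71.0% of its 31-base words with other genes, mostly with an unnamed gene, and H2BC18 shared 60.3%. H2BC21 shared 12.2%, H2BC5 15.5%, H4C8 13.5%, H3C6 5.3%, H2AC25 2.1%, H2AC6 1.8%, and H1-2 and H3C10 0.7% each. H2AC6 also overlaps an unnamed gene on its own strand.

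The level of each histone class in LLY-283 libraries at day 5 was compared first, since a class sum does not depend on how reads are split within the class. It still depends on reads shared with genes outside the class, as with the 61.9% of H2BC12 words shared with an unnamed gene. Summed over the 64 genes, the level was 157, 163 and 174 CPM in the 3 vehicle libraries and 250.2, 250.3 and 238 CPM in the 3 LLY-283 libraries. The groups did not overlap, and their means differed by 0.58 on the log2 scale. The mean of the H1 sum was 17.99 ± 0.859 CPM in vehicle and 32.4 ± 3.14 CPM in LLY-283 (SD, n = 3 each). For H2A the means were 36.8 ± 2.71 and 54.7 ± 1.31 CPM, and for H2B 67.2 ± 3.67 and 101 ± 3.43 CPM. For H3 they were 15.6 ± 1.02 and 24.3 ± 0.547 CPM. The H4 sum had the smallest difference, at 27.1 ± 2.16 against 33.7 ± 0.533 CPM. Each class was higher in all 3 LLY-283 libraries than in any vehicle library. The class differences were 0.85 for H1, 0.57 for H2A, 0.59 for H2B, 0.635 for H3 and 0.32 for H4 on the log2 scale. H1-2 alone had means of 17.36 CPM in vehicle and 31.8 CPM in LLY-283. H2AC6 and H2AC25 had 17.5 and 13.7 CPM in vehicle and 27.04 and 21.3 CPM in LLY-283. The H1 and H2A sums are thus largely these genes and no separate measure. In H2B, H2BC21 and H2BC5 had means of 20.83 and 11.9 CPM in vehicle and 43.01 and 19.58 CPM in LLY-283. H3C6 and H3C10 had 10.12 and 2.711 CPM in vehicle and 15.7 and 5.34 CPM in LLY-283. H4C8 and H4C15 had 4.761 and 5.703 CPM in vehicle and 7.495 and 8.078 CPM in LLY-283. The differences of the H2B, H3 and H4 sums thus also lie largely in genes tested singly below, and are no separate measure of them.

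**Figure D1:**
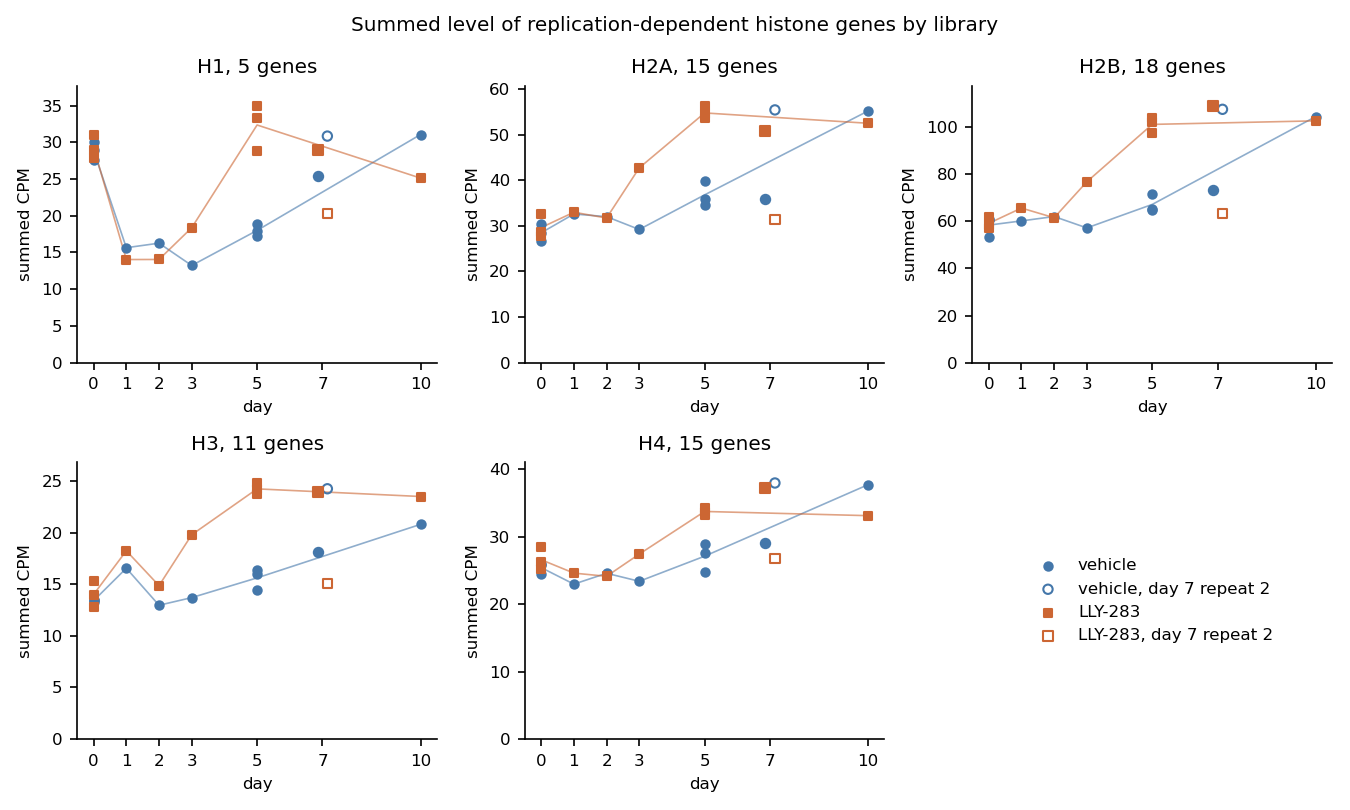
Summed CPM of the genes of each histone class (y axis) by day (x axis), 1 point per library, vehicle in blue circles and LLY-283 in orange squares. Lines join the means of each day except day 7, whose repeat 2 libraries are open symbols. At day 5 the LLY-283 libraries lie above the vehicle libraries in all 5 classes, and at day 10 the LLY-283 library is the lower one in all classes but H3.

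Between treatments at day 5, 10 histone genes were higher with LLY-283 and 0 lower, of 25 that passed the filter on low counts. Where treatments are compared at the same day, rose and fell mean higher and lower with LLY-283 than with vehicle, not a change over time. Of all 16491 genes tested, 12% were called higher and 14.1% lower. A call here and below is a Benjamini-Hochberg p, adjusted over all genes tested, of less than 0.01 in the quasi-likelihood test of edgeR. The 10 were H2BC21, H2BC5 and H2BC18 of H2B, H1-2 of H1, H2AC6 and H2AC25 of H2A, H3C6 and H3C10 of H3, and H4C8 and H4C15 of H4. The median log2 fold change of the 25 genes was 0.65, and that of all genes tested was 0.02. The groups did not overlap, with LLY-283 higher, for 14 of the 25 genes, among them all 10 called, against 20.8% of all genes tested. For 1 gene, H2BC11, they did not overlap with LLY-283 lower, and the share of all genes in that direction is not given here.

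The filter bears on those counts. The other 39 histone genes were not tested because of low counts. Of the 25 tested, 18 were over the filter's level in every library of both treatments, and these include 9 of the 10 called. A further 6 were over it in all LLY-283 libraries and not in all vehicle libraries. H2BC18, the remaining called gene, was among these 6, with 0 vehicle libraries over that level, so it entered the test only through its LLY-283 libraries. H2BC4 and H4C5 were also among these 6, and with H2BC18 they are among the 14 genes without overlap. The count of 14 and the median of 0.65 thus rest in part on genes that were not over the level in all vehicle libraries.

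**Figure D2:**
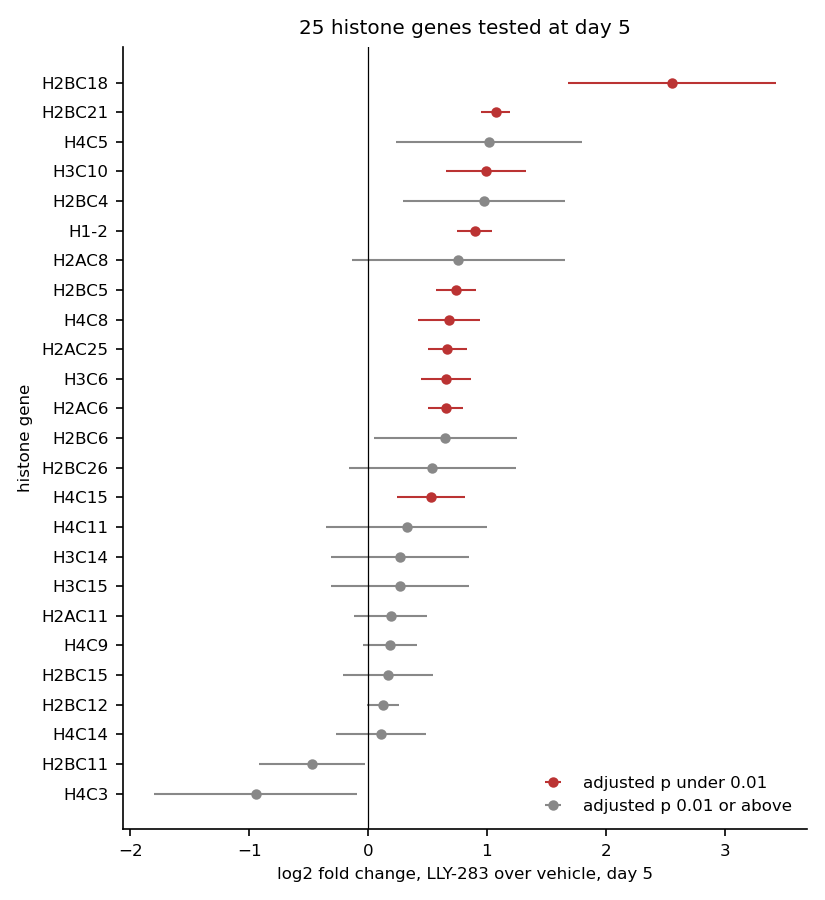
Log2 fold change of LLY-283 over vehicle at day 5 (x axis) for the 25 histone genes tested (y axis), with approximate 95% intervals from the fit of 3 libraries a group. The 10 genes in red passed an adjusted p of 0.01 and lie between 0.53 and 2.56, and 2 of the 25 genes lie below 0.

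H2BC21, which encodes an H2B protein and was the most abundant of the 64 genes by CPM, is at chr1:149884459-149886682 on the minus strand (GRCh38). Its level at day 5 was 20.5, 19.8 and 22.2 CPM in vehicle and 43.3, 43.1 and 42.7 CPM in LLY-283. The LLY-283 values lay close together and far above the vehicle values. The log2 fold change was 1.07 ± 0.0613 (SE, adjusted p 1.9e-13). The 200 bases before its start (RefSeq, GRCh38.p14, chr1:149886683-149886882, minus strand, written 5′ to 3′ along the gene) are shown because this promoter holds all 3 motifs searched, in capitals.
H2BC21: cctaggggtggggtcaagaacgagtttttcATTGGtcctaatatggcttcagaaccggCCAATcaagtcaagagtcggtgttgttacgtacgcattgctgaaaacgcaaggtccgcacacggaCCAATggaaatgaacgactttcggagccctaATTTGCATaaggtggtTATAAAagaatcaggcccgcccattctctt
TATAAA, searched on the sense strand, starts 30 bases before the start site. The octamer ATTTGCAT, the site of POU domain factors such as OCT1 and searched on both strands, starts 46 bases before it. CCAAT, the NF-Y motif and searched on both strands, lies at 77, 142 and 170 bases before it. H2AC20 starts 235 bases away on the other strand with a mean of only 0.473 CPM, and was not tested at day 5.

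H1-2, which encodes a linker histone, is at chr6:26055740-26056470 on the minus strand. Its level at day 5 was 16.7, 17.2 and 18.2 CPM in vehicle and 34.1, 32.8 and 28.4 CPM in LLY-283. The lowest LLY-283 library was above the highest vehicle library. The log2 fold change was 0.90 ± 0.0737 (SE, adjusted p 2.1e-10). H1-2 was the only one of the 10 called genes without an annotated poly(A) transcript. Its promoter is shown beside that of H2BC21 because it holds 1 CCAAT motif and neither TATAAA nor the octamer (RefSeq, GRCh38.p14, chr6:26056471-26056670, minus strand).
H1-2: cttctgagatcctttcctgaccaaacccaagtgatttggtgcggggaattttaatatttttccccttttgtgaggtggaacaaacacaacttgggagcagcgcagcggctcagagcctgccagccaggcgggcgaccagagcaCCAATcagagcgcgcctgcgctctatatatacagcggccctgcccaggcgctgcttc
The CCAAT motif starts 57 bases before the start site. The search took exact matches only, so the stretch tatatata between this motif and the start site was not counted as TATAAA.

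Over the histone genes as a whole these motifs were common. RefSeq gave a promoter of 300 bases (250 before and 50 after the start) for 59 of the 64 genes. TATAAA was present in 57.6% of them and in 7.3% of 35116 promoters of all genes. CCAAT was present in 83.1% against 34.6%, and the octamer in 42.4% against 1.8%. Of the 10 genes called at day 5, 4 had TATAAA, 8 had CCAAT and 3 had the octamer, and of the 14 tested and not called that had a promoter, 7, 11 and 6 did. H4C8 and H4C15 held none of the 3 motifs.

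The other H2B genes differed widely in their response. H2BC5 was at 11.7, 11.6 and 12.3 CPM in vehicle and at 19.6, 21.04 and 18.1 CPM in LLY-283, without overlap, and rose by 0.74 ± 0.086 on the log2 scale (SE, adjusted p 9.5e-08). H2BC12, the highest gene per kilobase, was at 24.03, 23.2 and 25.9 CPM in vehicle and at 26.5, 27.5 and 24.2 CPM in LLY-283. These ranges overlapped, and the log2 fold change of H2BC12 was 0.12 with an approximate 95% interval from -0.01 to 0.26 (adjusted p 0.17). H2BC18 had 5, 2 and 2 counts in vehicle and 21, 21 and 25 counts in LLY-283, a log2 fold change of 2.56 ± 0.446 (SE, adjusted p 4.2e-05) that rests on few, partly shared reads. DESeq2 gave H2BC18 no adjusted p. H2BC11 was at 2.80, 2.89 and 2.22 CPM in vehicle and at 2.16, 1.79 and 1.70 CPM in LLY-283, with a log2 fold change of -0.47 (adjusted p 0.11), and with H4C3 (-0.94, adjusted p 0.094) it was 1 of 2 genes of negative sign. H4C3 was named after its value was seen.

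Both leading H2A genes rose. H2AC6 was at 16.9, 15.97 and 19.7 CPM in vehicle and at 27.8, 27.5 and 25.8 CPM in LLY-283, a log2 fold change of 0.65 ± 0.0761 (SE, adjusted p 1e-07). H2AC25, one of the 2 genes in 1q42, was at 12.3, 14.6 and 14.1 CPM in vehicle and at 22.1, 20.1 and 21.6 CPM in LLY-283, a change of 0.67 ± 0.0831 (SE, adjusted p 3.3e-07). In neither gene did the treatments overlap. The third H2A gene by level, H2AC11, was at 3.94 to 4.14 CPM in vehicle and 4.43 to 4.63 CPM in LLY-283, with a log2 fold change of 0.19 (adjusted p 0.37).

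In H3, the H3.1 genes H3C6 and H3C10 rose. H3C6 was at 10.4, 11.6 and 8.35 CPM in vehicle and at 14.5, 15.9 and 16.8 CPM in LLY-283, a log2 fold change of 0.66 ± 0.106 (SE, adjusted p 1.8e-05). H3C10 was at 2.92, 2.63 and 2.59 CPM in vehicle and at 6.01, 5.36 and 4.65 CPM in LLY-283, a change of 0.99 ± 0.171 (SE, adjusted p 3.4e-05). Neither gene overlapped between treatments. H3C14 and H3C15, which encode H3.2 and had identical rows, gave 0.27 when their counts were merged (adjusted p 0.35).

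Most H4 genes encode the same protein, and the day 5 changes of those tested ran from H4C8 to genes that did not pass. H4C8 was at 4.91, 4.80 and 4.58 CPM in vehicle and at 7.35, 7.89 and 7.25 CPM in LLY-283, a log2 fold change of 0.68 ± 0.133 (SE, adjusted p 0.00018). H4C15 was at 4.41, 6.57 and 6.13 CPM in vehicle and at 8.34, 9.05 and 6.85 CPM in LLY-283, a change of 0.53 ± 0.147 (SE, adjusted p 0.0055). The gap between the groups was small for H4C15, and its call was lost without vehicle repeat 1 (adjusted p 0.085), vehicle repeat 3 (0.013), LLY-283 repeat 1 (0.023) or LLY-283 repeat 2 (0.05), and in DESeq2 (0.024). The near-identical H4C14 alone had a log2 fold change of 0.11 (adjusted p 0.69). With both genes merged, the pair rose by 0.38 ± 0.111 (SE, adjusted p 0.0078). H4C9, the highest H4 gene per kilobase, was at 9.07, 9.40 and 12.04 CPM in vehicle and at 10.2, 11.3 and 12.3 CPM in LLY-283, with a log2 fold change of 0.19 (adjusted p 0.22).

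By annotation, 9 of the 15 tested genes with an annotated poly(A) transcript rose and 1 of the 10 tested genes without one did. Of all genes tested, 12% were called higher. The median log2 fold changes of these sets were 0.66 and 0.27. The sets also differed in level. Without such a transcript, H2AC8, H4C3, H4C5, H4C11, H3C14 and H3C15 had mean counts of 8.08 to 18.54, with identical rows for H3C14 and H3C15. With one, H2BC18, H2BC6, H2BC4 and H2BC26 had mean counts of 8.96 to 19.04. The 9 include H2BC18, which entered the test only through its LLY-283 libraries. The part of count level in this contrast was not tested. By position, 6 of 17 tested genes rose in 6p22, 3 of 6 in 1q21 and 1 of 2 in 1q42, beside the same 12% of all genes. The 3 of 1q21 were H2BC21, H2BC18 and H4C15, of which H4C15 lost its call without some single libraries. The 6 tested there include the near-identical H3C14 and H3C15, and H4C14 and H4C15. Without vehicle repeat 3, the library with the high fibroblast marker level, 9 of the 10 calls stood, all but H4C15. The part of these markers in the histone levels was not tested. Where all 22 libraries of days 0 to 7 shared a fit, which takes in the day 7 libraries of doubtful label, 4 genes were called.

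At day 0 no difference between treatments passed the test in these genes. By edgeR, 0 of 21 genes tested were called, against 0.0169% of all genes, and DESeq2 also called 0. By edgeR, unadjusted p was under 0.05 for 1 of the 21 and for 1012 of all 17780 genes tested. H2BC21 was at 20.9, 23.7 and 23.4 CPM in vehicle and at 22.5, 21.6 and 22.6 CPM in LLY-283, a log2 difference of -0.04 with an approximate 95% interval from -0.17 to 0.08. H1-2 was at 27.3, 28.4 and 29.6 CPM in vehicle and at 28.7, 30.5 and 27.6 CPM in LLY-283, a difference of 0.01 with an interval from -0.10 to 0.12. Both intervals lie far below the day 5 changes of these genes.

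The change from day 0 to day 5 was then measured within each treatment. These comparisons use the same day 0 and day 5 libraries as above, so their values are set side by side only. In vehicle, 5 genes rose and 1 fell of 23 tested, where 22.2% of all genes tested were called higher and 16.7% lower. H1-2 fell by 0.73 ± 0.0685 (SE, log2, adjusted p 7.2e-10), from 27.3 to 29.6 CPM at day 0 to 16.7 to 18.2 CPM at day 5. H2BC11 rose by 1.51 ± 0.268 (adjusted p 3e-05), from 17 to 21 counts to 30 to 45 counts. H2AC11 rose by 0.78 ± 0.198 (adjusted p 0.0017), H2BC5 by 0.44 ± 0.116 (0.0024), H2BC12 by 0.37 ± 0.0793 (0.00034) and H2AC6 by 0.29 ± 0.0901 (0.0091). The calls of H2AC6, H2BC5 and H2AC11 did not survive the loss of some single libraries, with adjusted p up to 0.078 for H2AC6 without vehicle day 0 repeat 2. Without vehicle day 0 repeat 1, H2BC5 had an adjusted p of 0.023, and without repeat 2 H2AC11 had 0.014. H2BC21 had a log2 change of -0.14 (adjusted p 0.1).

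With LLY-283, 13 genes rose and 0 fell of 24 tested, where 22.9% of all genes tested were called higher and 19.5% lower. H2BC21 rose by 0.97 ± 0.0531 (SE, log2, adjusted p 1.3e-13) and H2BC5 by 1.005 ± 0.0856 (4.3e-10). H2AC6 rose by 0.89 ± 0.0717, H2AC25 by 0.91 ± 0.082, H3C10 by 1.24 ± 0.166, H3C6 by 0.68 ± 0.0919 and H4C8 by 0.70 ± 0.124, each with an adjusted p of 3.8e-05 or less. H2BC12, H2AC11 and H4C9, which did not pass the test between treatments at day 5, also rose, by 0.43, 1.085 and 0.47. H2BC18, H2BC6 and H2BC15 made up the 13, H2BC6 and H2BC15 being named after their values were seen. H2BC15 lost its call when any 1 of the 6 libraries was left out. With LLY-283, H2BC18 and H2BC6 had means of 0.33 and 0.45 CPM at day 0 and 1.19 and 1.45 CPM at day 5. Both needed their day 5 libraries to pass the filter on low counts, so their place among the 13 is no support. H1-2, which fell in vehicle, had a log2 change of 0.15 with LLY-283 (adjusted p 0.047), so its level at day 5 was near that of day 0. Among the 10 genes called between treatments at day 5, H1-2 and H4C15 did not pass here, H4C15 with 0.30 (adjusted p 0.24).

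**Figure D3:**
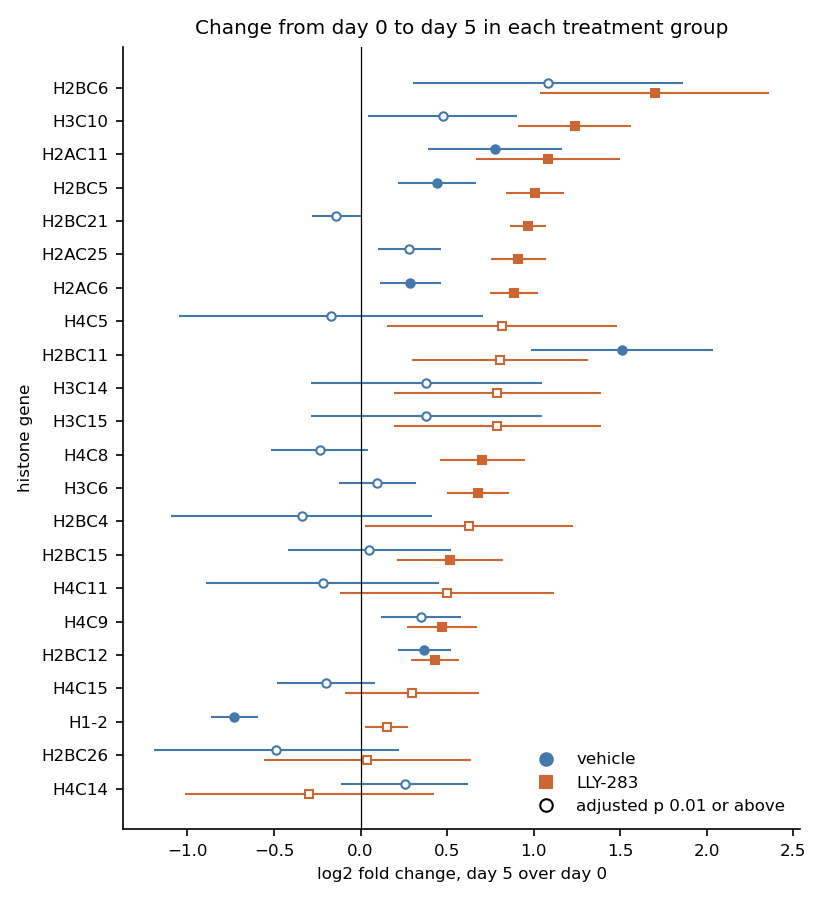
Log2 fold change from day 0 to day 5 (x axis) within vehicle (blue circles) and within LLY-283 (orange squares) for the 22 histone genes tested in both (y axis), with approximate 95% intervals from 3 libraries a group and day. Open symbols did not pass an adjusted p of 0.01. H1-2 lies at -0.73 in vehicle and 0.15 in LLY-283, H2BC21 at -0.14 and 0.97, and H2BC12 at 0.37 and 0.43.

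Whether these changes differed between treatments was tested by the interaction of treatment with day. A positive value is a change from day 0 to day 5 that was more upward, or less downward, with LLY-283 than with vehicle. The interaction was called positive for 8 of 26 genes tested and negative for 0, where 6.78% of all genes tested were called positive and 8.15% negative. H2BC21 had an interaction of 1.12 ± 0.0861 (SE, log2, adjusted p 3.5e-10) and H1-2 of 0.89 ± 0.0958 (1.2e-07). H4C8 followed with 0.95 ± 0.175 (0.00019), and its level at day 0 was 4.18 to 4.91 CPM in LLY-283 and 5.38 to 5.79 CPM in vehicle. H2AC25 had 0.64 ± 0.122 and H2AC6 0.61 ± 0.118, with adjusted p of 0.00027 and 0.00033. H2BC18 had 3.03 ± 0.64 (0.00077) on few counts, and it passed the filter only through its LLY-283 libraries of day 5, so its count among the 8 is no support. H3C6 had 0.59 ± 0.146 (0.0034) and H2BC5 0.57 ± 0.148 (0.0049), and each of these lost its call without some single libraries, H3C6 with an adjusted p of up to 0.016 and H2BC5 of up to 0.047. Among the 10 genes called between treatments at day 5, H3C10 and H4C15 were not called here, with 0.77 and 0.51 (adjusted p 0.027 and 0.19). For H2BC12 and H4C9 the interaction was 0.07 and 0.13 (adjusted p 0.72 and 0.62), and for H2BC11 it was -0.70 (0.16).

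Days 1, 2, 3 and 10 have 1 library of each treatment and no test. At day 1 the level of H1-2 was 15.2 CPM in the vehicle library and 13.6 CPM in the LLY-283 library, while all 6 libraries of day 0 lay between 27.3 and 30.5 CPM. It was 15.7 and 13.7 CPM at day 2, 12.7 and 17.6 CPM at day 3, and 30.7 and 25.02 CPM at day 10. From day 1 to day 3 the libraries of both treatments were thus below those of day 0, and the LLY-283 library was below the vehicle library at days 1, 2 and 10 and above it at day 3. H2BC21 was at 22.5 and 26.7 CPM at day 1, 22.3 and 24.6 CPM at day 2, 19.95 and 31.6 CPM at day 3, and 38.2 and 45.5 CPM at day 10. In vehicle it stayed between 19.8 and 23.7 CPM from day 0 to day 5, and the day 10 library was above that range.

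**Figure D4:**
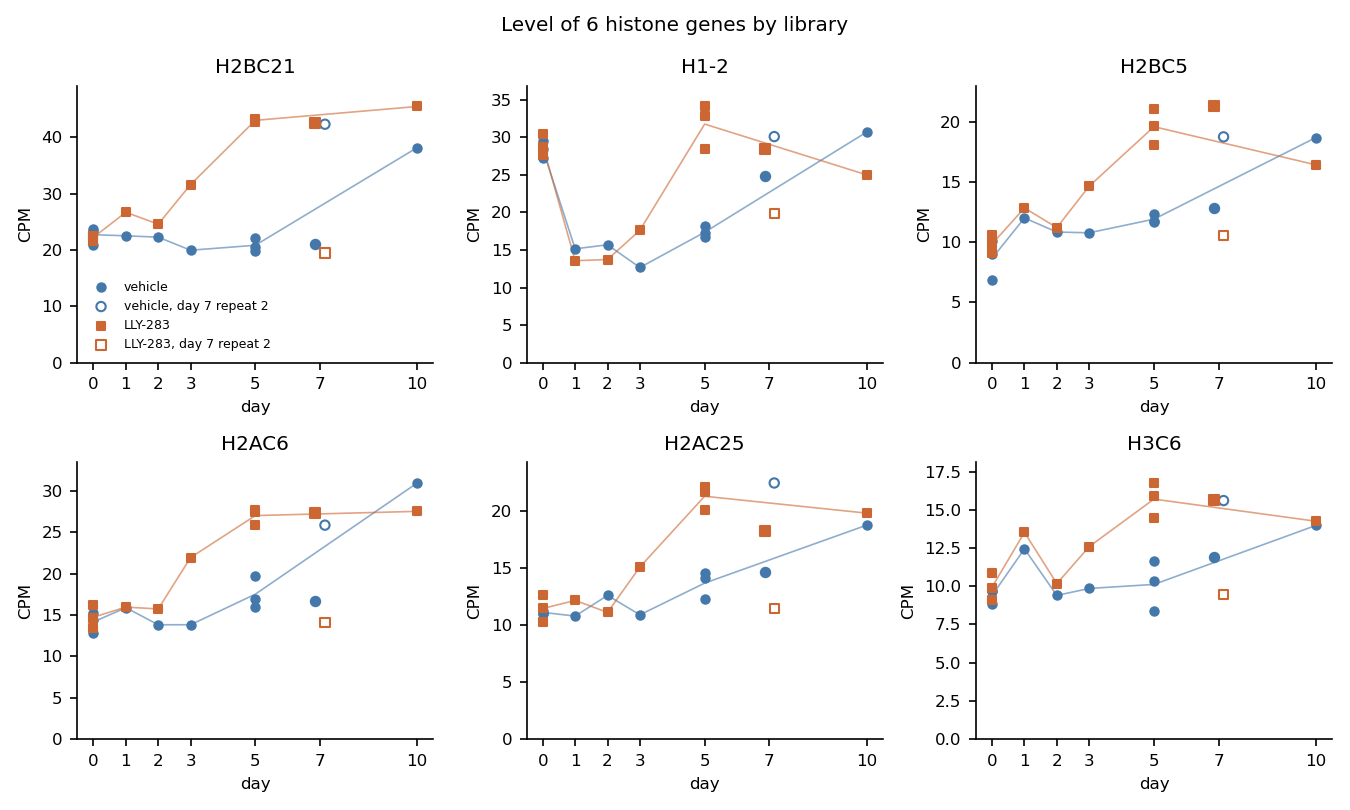
CPM of 6 histone genes (y axes) by day (x axis), 1 point per library, vehicle in blue circles and LLY-283 in orange squares. Lines join the means of each day except day 7, whose repeat 2 libraries are open symbols. In the LLY-283 library of day 3, H2BC21 was at 31.6 CPM against 19.95 CPM in vehicle, and at day 7 the vehicle library of repeat 2 was at 42.3 CPM and that of LLY-283 at 19.5 CPM.

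For the 10 genes called at day 5, the difference between the 2 libraries of a day was taken on the scale of log2(CPM + 0.5). It was above 0 for 7 of 10 genes at day 1, with a median of 0.10 and a range from -0.57 to 0.24, and for 5 of 10 at day 2, with a median of -0.03 and a range from -0.27 to 0.50. At day 3 it was above 0 for 10 of 10, with a median of 0.55 and a range from 0.06 to 1.20. At day 10 it was above 0 for 5 of 10 genes, with a median of -0.01 and a range from -0.29 to 1.36. Of all genes, 45.9%, 47.3%, 46.6% and 49.4% were higher in LLY-283 at days 1, 2, 3 and 10. The 10 were chosen for being higher at day 5, so these shares are no background for them. Of the 25 genes tested at day 5, 18, 11, 22 and 8 were higher on those days. The medians of days 1, 2 and 10 were thus small beside that of day 3, but single genes were not: at day 10 H3C10 was at 2.28 CPM in vehicle and 6.65 CPM in LLY-283. The -0.57 of day 1 and the 1.20 of day 3 were those of H4C15. H4C14, whose reads cannot be told apart from those of H4C15, had 0.76 and -0.89. These ends of the ranges thus depend on how shared reads were split. Summed over the 64 genes, the level was 249.2 CPM in vehicle and 236.9 CPM in LLY-283 at day 10.

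At day 7 the repeats went in opposite directions. H2BC21 was at 21.1 and 42.3 CPM in vehicle repeats 1 and 2 and at 42.5 and 19.5 CPM in LLY-283 repeats 1 and 2. Within repeat 1, 10 of the 10 genes called at day 5 were higher with LLY-283, with a median log2 difference of 0.66, and within repeat 2 it was 1 of 10, with a median of -0.83. Of all genes, 47.1% were higher with LLY-283 within repeat 1 and 48.5% within repeat 2. The 10 were chosen for being higher at day 5, so these shares are no background for them. Of the 25 genes tested at day 5, 20 were higher within repeat 1 and 6 within repeat 2. By label, 0 of 26 histone genes tested were called by edgeR and 0 by DESeq2, and 0% of all genes tested were called. By edgeR, unadjusted p was under 0.05 for 0 of the 26 and for 236 of all 16826 genes tested. The interaction of treatment with day was also tested over the 22 libraries of days 0 to 7. It called 0 of 30 histone genes by edgeR, where 0.0289% of all genes were called, and 1 by DESeq2. By edgeR, unadjusted p was under 0.05 for 6 of the 30 and for 3166 of all 20756 genes tested. An excess in the histone genes was not tested. Shares of all genes called are not given for the refits that follow, so their counts have no background. Without the 4 libraries of day 7 the interaction over days called 5. It called 4 when LLY-283 repeat 1 of day 7 was left out, and 1 when vehicle repeat 1 or LLY-283 repeat 2 of that day was.

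Of 28 genes for histone mRNA transcription and 3′ end processing, 14 fell with LLY-283 at day 5 and 1 rose, where 14.1% of all genes tested were called lower and 12% higher, the shares that also apply to the lists that follow. The median log2 change of the 28 was -0.16. SLBP, which binds the stem-loop, fell by 0.325 ± 0.0471 (SE, log2, adjusted p 3.3e-06), and NPAT, the S phase activator of histone genes, fell by 0.20 ± 0.0576 (0.0066). SNRPB and SNRPD3, whose proteins are Sm subunits of the U7 snRNP and of the spliceosome, fell by 0.24 and 0.28. The U7-specific genes LSM10 and LSM11 had changes of -0.12 and -0.15 (adjusted p 0.16 and 0.061), and CASP8AP2, a part of the histone locus body, had -0.02 (0.83). The gene that rose was POU2F1, which encodes the octamer-binding factor OCT1 (0.195, adjusted p 0.004), named after its value was seen.

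Of 9 tested genes among 11 for replication-independent histones, 5 fell, 1 rose and 3 were not called at day 5. H2AX, whose mRNA can end in the stem-loop or in poly(A), and H2AZ1 fell by 0.55 and 0.32 on the log2 scale. The gene that rose is not among those named here. The H3.3 genes had changes of -0.04 for H3-3A, the gene with the K27M change in this line (adjusted p 0.36), and -0.10 for H3-3B (0.021). Of 20 histone chaperone genes, 12 fell and 0 rose at day 5, against 14.1% of all genes tested called lower. IPO4, an importin for histones, fell by 0.38, SSRP1, a subunit of the FACT complex, fell by 0.285, and MCM2, a subunit of the replicative helicase that also binds histones, fell by 0.28.

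S phase genes mostly fell. Of 24 such genes, 21 fell and 0 rose with LLY-283 at day 5, with a median log2 fold change of -0.36, against 14.1% of all genes tested called lower and 12% higher. RRM2, the small subunit of ribonucleotide reductase, fell by 0.78 ± 0.0383 (SE, log2, adjusted p 9.8e-15), the helicase gene MCM4 by 0.47 and the polymerase gene POLA1 by 0.57. Their summed level was 4510 to 4653 CPM in vehicle and 3458 to 3696 CPM in LLY-283 at day 5. At day 3 it was 4797 CPM in vehicle and 3779 CPM in LLY-283, and at day 10 it was 3606 and 3592 CPM, when the histone sums were also close. At day 7 it was 4852 and 4155 CPM in vehicle repeats 1 and 2 and 3779 and 4828 CPM in LLY-283 repeats 1 and 2. In bulk RNA, fewer cells in S phase and less of each mRNA per cell cannot be told apart, and the part of the S phase genes' decrease in the histone levels was not tested.

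Of the glioma precursor-like markers, 3 rose and 2 fell among 7 tested at day 5, with log2 changes of 0.41 for PDGFRA and -0.24 for NES. Of the fibroblast markers, 3 of 11 tested rose, LUM by 0.44, THY1 by 0.215 and POSTN by 1.70, and 0 fell. The other 8 were not called, and the median log2 change of the 11 was -0.14.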

How the data were processed

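Poly(A) RNA of 24 libraries was sequenced with a stranded kit. The authors assigned reads to human transcripts (hg38) with kallisto and deposited estimated counts per gene as whole numbers, not normalized for library size, and all 24 columns were used. Of the 58676 gene identifiers, 58207 matched a symbol of the GENCODE annotation of GRCh38, which may not be the authors' release. kallisto shares reads among similar transcripts, so near-identical histone genes are uncertain. CPM used TMM factors. Tests used edgeR 4.0.16 in R 4.3.3 (robust quasi-likelihood, filter on low counts by group, Benjamini-Hochberg over all genes tested, calls at an adjusted p under 0.01), each within its own libraries. Intervals at 95% are approximate, from the estimate and its SE.

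Genes named were those called at day 5, the 2 highest per kilobase in each class, the 4 largest changes each way in vehicle, up to 6 of the interaction, H3C2, the 3 of smallest p in each list, and SLBP, NPAT, CASP8AP2, LSM10, LSM11, H3-3A and H3-3B. The histone genes, the lists and the rule were chosen with earlier results of these data known. The lists came from general knowledge, and some named genes are not reported here. Alternatives were DESeq2 1.42.0, its size factors, library size alone, no filter, a mean of at least 10 counts, a threshold of 0.05, a repeat block, a fit shared by 22 libraries, no day 7 libraries, and each library left out. Merging near-identical pairs (over 90% of 31-base words shared) was chosen after seeing the data. The test between treatments at day 5 and both interaction tests were checked on simulated data, and the other tests were not. Promoter sequences are RefSeq's.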

Additional observations from a re-analysis of the deposited data

Results flagged for a closer look

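For 8 histone genes the treatment difference at day 5 was not the same as that at day 0, by the test of the interaction of treatment with day (edgeR, adjusted p under 0.01). The difference of the treatment effects, on the log2 scale, was 1.12 for H2BC21, 0.89 for H1-2, 0.95 for H4C8, 0.64 for H2AC25, 0.61 for H2AC6, 3.03 for H2BC18, 0.59 for H3C6 and 0.57 for H2BC5. H2BC18 passed the filter on low counts only through its LLY-283 libraries of day 5. DESeq2 called 5 of them and not H2BC18, H2BC5 or H3C6.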

How the results depend on the processing

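Under the alternatives the calls at day 5 kept their direction. Of histone genes called between treatments at day 5, DESeq2 gave 8 and the fit shared by 22 libraries, which includes day 7, gave 4, losing H2AC25, H2AC6, H2BC21, H2BC5, H4C15 and H4C8. Leaving out 1 library gave 9 to 10. Within vehicle, the threshold of 0.05 gave 10, the shared fit gave 2, and leaving out 1 library gave 4 to 7. Within LLY-283 the shared fit lost 4 calls, those of H2BC15, H2BC21, H4C8 and H4C9. Leaving out 1 library gave 12 to 13 there, and for the interaction of days 0 and 5 it gave 6 to 8 and DESeq2 gave 5. Over days 0 to 7 the interaction, 0 in the fit as given, gave 1 in DESeq2, 6 without a filter, 1 at the threshold of 0.05, 5 without the day 7 libraries, and 0 to 4 leaving out 1 library. It could not be fitted without a library of days 1 to 3. At days 0 and 7 every alternative called 0. The shares of all genes called under the alternatives are not given here, so these counts have no background. Direction turned for 2 named genes that had not passed, H3C6 in vehicle (-0.002 without vehicle day 5 repeat 2, of a range up to 0.22) and H2BC12 in the interaction (-0.013 without vehicle day 0 repeat 3, of a range up to 0.141). Where 1 library was left in a group, its spread was taken to be that of the rest. The causes were not tested.

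The repeat numbers did not pair the libraries. Deviations of same-numbered libraries at day 5 correlated at 0.03, -0.01 and -0.01 across genes, and at day 7 at -0.22. With the replicate block no count of calls changed, with 10 histone genes called at day 5 and 8 in the interaction of days 0 and 5.

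Depth limits the rest. With 39 of the 64 genes untested at day 5 and library totals as above, changes in most genes of a few counts could not be tested, and intervals cover the spread between technical repeats only.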

Other observations

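Of 13 head-to-head pairs of histone genes with starts within 500 bases of each other, the 2 partners often stood at very different levels. H2BC12 had a mean of 23.03 CPM and its partner H2AC12, 250 bases away, 0.0442 CPM. H2AC6 had 19.2 CPM and H2BC4, 218 bases away, 0.899 CPM, with day 5 log2 fold changes of 0.65 and 0.98 (adjusted p 1e-07 and 0.028). H2AC25 had 14.6 CPM and H2BC26, 229 bases away, 1.02 CPM, with changes of 0.67 and 0.54 (adjusted p 3.3e-07 and 0.25). H2BC11 and H2AC11 start 247 bases apart and had changes of -0.47 and 0.19 (adjusted p 0.11 and 0.37). These partners were named after their values were seen.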
